A study of Mus musculus with 14 samples.

Results

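Tnc, Thbs1, Sparc, Spp1, Postn, Tgfbi and Pthlh encode secreted proteins of the kind that gather where an epithelium meets its stroma, and at the advancing edge of carcinomas. They were taken by gene symbol from the time-course table, 7 of 54332 genes, and were chosen by their TPM in these same libraries, over the timepoints and between the W12 replicates. Their values are therefore given as a description with no P value, and tests are kept for other genes of the same pathways. Matricellular proteins are released into the extracellular matrix but act less as scaffold than as signals, since they bind integrins, syndecans and other surface receptors and change adhesion, migration and the activity of growth factors. Many are deposited during wound repair and around tumours. Pthlh differs from the rest in that its product, parathyroid hormone-related protein, is a peptide hormone that keratinocytes secrete and that acts on neighbouring mesenchymal cells through the receptor PTH1R.

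The study asked how epidermal stem cells (EpdSCs) change fate when the hair follicle factor SOX9 is switched on in them, up to the appearance of features of basal cell carcinoma. RNA was sequenced from 10 libraries of sorted EpdSCs, 2 biological replicates at each of D0, W1, W2, W6 and W12. All cells came from back skin of CD1 mice that carried K14rtTA and TRE-myc-Sox9, so that doxycycline (DOX) turns on a MYC-tagged Sox9 transgene in cells in which the Krt14 promoter is active. DOX was injected at P21 and continued in the feed, and cells were sorted at P21 (D0, no DOX), P28 (W1), P35 (W2) and P63 (W6). The W12 cells came from newborn skin of the same genotype that was grafted onto female Nude mice, left to heal and then put on DOX for 12 weeks. An effect of grafting, of the host or of age therefore cannot be told apart from one of longer SOX9 expression. No DOX-treated mice without the transgene and no untreated mice of matching age were analysed here. Every library carries the same sort labels (CD31, CD45, CD117 and CD140a negative, CD49f high, CD34 negative, Ly6A high) and a male label. Placode cells of the same series entered no comparison, because the deposited table holds only the authors' own comparison of them.

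The sums of 10 epidermal basal markers such as Krt5 and Krt14 lay between 36322 and 61134 TPM (transcript abundance scaled to the same total in every library), most of it Krt5 and Krt14, so both basal keratins were abundant in every library. Of the 10 markers, 6 were lower at W12 than at D0 and 2 higher. Krt15 went from a mean of 11584 TPM to 282 TPM (log2 change −5.37, limma adjusted P = 5.73e-05), and Cdh1, Trp63, Col17a1, Itgb4 and Krt5 were also called lower, by −1.92 to −0.95. The transgene stood at 89.6 and 45.6 TPM before DOX. On DOX it was highest at W1 (3387 and 3414 TPM), then 1892 and 1469 TPM at W2, 1108 and 859 at W6, and 606 and 903 at W12. Only the W6 and W12 libraries overlapped. Longer time on DOX thus came with less transgene RNA, and the 2 cannot be told apart here. Several libraries went against a label or stood apart. In D0 replicate 2, Xist was at 4.61 TPM and Y-linked Uty was listed at 0. The W12 libraries listed Xist at 5.51 and 3.50 TPM together with Ddx3y at 11.0 and 12.9 TPM, where the other 7 male-labelled libraries had Ddx3y between 21.9 and 32.7 TPM. A list of 18 immediate-early and stress genes (Fos, Egr1 and others) summed to 35172 and 56770 TPM at D0 and to between 7054 and 15179 TPM in the other 8 libraries. Endothelial markers (6 genes) summed to at most 2.08 TPM through W6 and to 70.7 and 151 TPM at W12. Differences of the 7 genes from D0 are therefore also given without D0 replicate 2 or with W1, itself already on DOX and with the most transgene RNA, as the baseline. In bulk libraries, fewer cells of a type and less RNA per cell cannot be told apart. TPM keep no read depth, so the depth of each library is unknown.

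The starts of Tnc, Spp1 and Pthlh are shown as sequence, since these 3 genes were low or nearly absent before induction and highest at W12. RefSeq start sites on GRCm38.p6 were found for 6 of the 7 genes, not for Thbs1, and the 250 bases before each start were searched on both strands for the AP-1 motif TGANTCA, the SOX core ACAANG, the RUNX core TGTGGT and the TATA box TATAAA. Matched letters are in capitals, and each line runs 5′ to 3′ on the strand of the gene.
Tnc (chr4:64047016-64047265, minus strand): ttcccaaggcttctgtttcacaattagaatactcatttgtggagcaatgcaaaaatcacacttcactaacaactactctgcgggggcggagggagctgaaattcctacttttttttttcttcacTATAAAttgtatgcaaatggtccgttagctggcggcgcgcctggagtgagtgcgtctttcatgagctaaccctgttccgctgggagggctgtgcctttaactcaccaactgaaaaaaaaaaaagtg
Spp1 (chr5:104434861-104435110, plus strand): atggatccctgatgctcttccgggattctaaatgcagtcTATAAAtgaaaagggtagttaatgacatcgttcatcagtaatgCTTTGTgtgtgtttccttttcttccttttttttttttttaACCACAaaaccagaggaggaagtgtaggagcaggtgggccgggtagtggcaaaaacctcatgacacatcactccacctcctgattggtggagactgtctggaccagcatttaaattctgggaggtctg
Pthlh (chr6:147264014-147264263, minus strand): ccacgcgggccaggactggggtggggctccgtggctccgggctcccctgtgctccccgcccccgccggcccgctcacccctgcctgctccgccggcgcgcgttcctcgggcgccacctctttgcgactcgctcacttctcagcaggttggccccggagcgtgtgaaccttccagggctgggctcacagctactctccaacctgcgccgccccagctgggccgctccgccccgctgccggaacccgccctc
Tnc held a TATA box 126 bases before its start. Spp1 held a TATA box at 211 bases, a SOX core on the opposite strand (CTTTGT) at 168 bases and a RUNX core on the opposite strand (ACCACA) at 128 bases. Pthlh held none of the 4 motifs. Over the 6 genes, the SOX core was found in 3 (Sparc, Spp1 and Tgfbi), the TATA box in 3 (Tnc, Spp1 and Postn), the RUNX core in 1 and the AP-1 motif in 0. The RefSeq start of Sparc lies 3103 bases from the outermost GENCODE start, so its window is 1 of several possible ones. Of 32851 windows of the same length, 36.3% held the SOX core, 12.4% the TATA box, 14.0% the RUNX core and 6.75% the AP-1 motif. A match describes the letters of the window and does not say that a factor binds there.

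Along the time course the 7 genes took different paths. Pthlh was higher than D0 from W1 on and Tnc from W2 on, Spp1 was above 0.1 TPM only in the W6 and W12 libraries, Thbs1 had a lower mean at each successive timepoint, Tgfbi was lowest at W6, Sparc was low from W1 to W2 and high again at W12, and Postn was high throughout. By W12 both libraries lay above both D0 libraries for 4 genes (Tnc, Spp1, Postn and Pthlh), as did 32.8% of the 13110 genes whose mean reached 1 TPM. Both lay below D0 for 2 genes (Thbs1 and Tgfbi), against 41.9% of those genes. At W1 the higher genes were Postn and Pthlh (34.4% of all genes) and the lower ones Thbs1, Sparc and Tgfbi (20.7%), and W2 added Tnc to the higher genes (35.1%) with the same lower ones (26.6%). At W6 the higher genes were Tnc, Spp1 and Pthlh (35.4% of all genes) and the lower genes Thbs1, Sparc and Tgfbi (27.1%). All 7 genes passed the mean of 1 TPM, Spp1 only through its W6 and W12 libraries.

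**Figure D1:**
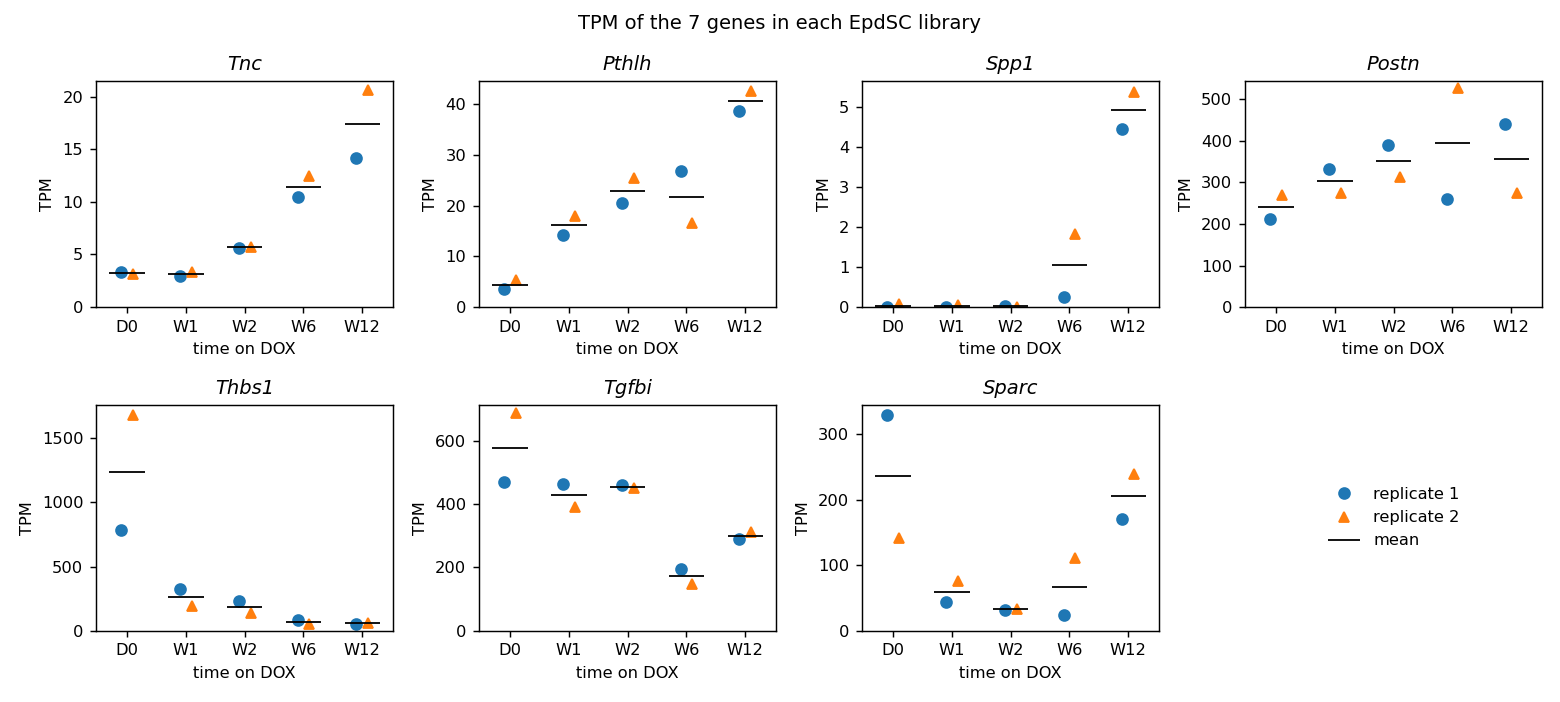
TPM (linear axes from 0) of each gene in the 10 EpdSC libraries by time on DOX, with circles for replicate 1, triangles for replicate 2 and bars for the mean of both. Tnc reached 14.1 and 20.6 TPM at W12 and Spp1 4.47 and 5.39 TPM, while Thbs1 went from 787 and 1679 TPM at D0 to 53.9 and 61.3 TPM at W12.

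Tnc encodes tenascin-C, a large hexameric glycoprotein that weakens adhesion of cells to fibronectin and is laid down at wound edges and in tumour stroma. The gene lies on chromosome 4 of GRCm38 (63959785 to 64047015, minus strand), and its body overlaps 8030451A03Rik on the opposite strand, so that unstranded reads of the shared stretch could belong to either. Tnc stood at 3.34 and 3.10 TPM in the D0 libraries, 2.91 and 3.33 at W1, 5.60 and 5.75 at W2, 10.4 and 12.4 at W6, and 14.1 and 20.6 at W12. D0 and W1 overlapped, and every later timepoint lay above the one before it in both libraries. The mean at W12 was 17.4 ± 4.58 TPM (SD, n = 2), 5.38 times that of D0 (3.22 ± 0.169 TPM), and Tnc went from rank 10419 to rank 5742 among all genes by mean TPM. Differences fitted over all 10 libraries as means of log2(TPM + 1), a scale that understates changes of low genes, were 0.66 at W2, 1.55 at W6 and 2.10 at W12 against D0 (standard error 0.21). Without D0 replicate 2 the W12 difference was 2.06, and against W1 in place of D0 it was 2.13. Of the marker sums, Tnc went most closely with that of 6 melanocyte markers (Pearson r = 0.85 on this log2 scale, n = 10), which lay between 1.27 and 12.8 TPM. Next came the endothelial sum (r = 0.82) and that of 10 fibroblast markers (r = 0.79). The replicate with the higher sum had more Tnc at only 1 of 5 timepoints for the melanocyte markers. For the endothelial markers it did at 3 of 5 and for the fibroblast markers at 2 of 5. The part of these markers in the Tnc levels was not tested.

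Thbs1 encodes thrombospondin-1, which restrains blood vessel growth through CD36 and CD47 and can release TGF-β from its latent complex. It lies on chromosome 2 (118111876 to 118127133, plus strand) and overlaps the lincRNA Gm29233 on the opposite strand. At D0 the libraries listed 787 and 1679 TPM, which put the gene at rank 100 by mean TPM. It then stood at 329 and 192 TPM at W1, 229 and 141 at W2, 86.3 and 53.2 at W6, and 53.9 and 61.3 at W12. D0 lay above every other library, W1 overlapped W2, W6 overlapped W12, and the 4 libraries of W1 and W2 all lay above the 4 of W6 and W12. The W12 mean of 57.6 ± 5.23 TPM (SD, n = 2) was 21.4 times lower than the D0 mean of 1233 ± 631 TPM.

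The size of the Thbs1 difference rested on D0. On the log2 scale the W12 difference from D0 was −4.30 (standard error 0.42), −3.75 without D0 replicate 2 and −4.85 without D0 replicate 1. The difference from W1 was −2.11 at W12 and −1.88 at W6. Across the 10 libraries Thbs1 went with the summed immediate-early and stress genes (Pearson r = 0.88 of log2(TPM + 1), n = 10 libraries, of which pairs share a timepoint), and the replicate with the higher sum also had more Thbs1 at 5 of 5 timepoints. The same held for Tgfbi at 5 of 5 timepoints (r = 0.61), and Pthlh ran opposite to the sum over the libraries (r = −0.84). Within timepoints, however, the replicate with the higher sum had more Pthlh at 3 of 5. With the epidermal basal sum r was 0.77 for Thbs1, 0.75 for Tgfbi and −0.67 for Pthlh, and the higher replicate was the same at 3 of 5 timepoints for each. The part of these genes in the levels of Thbs1, Tgfbi and Pthlh was not tested.

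**Figure D2:**
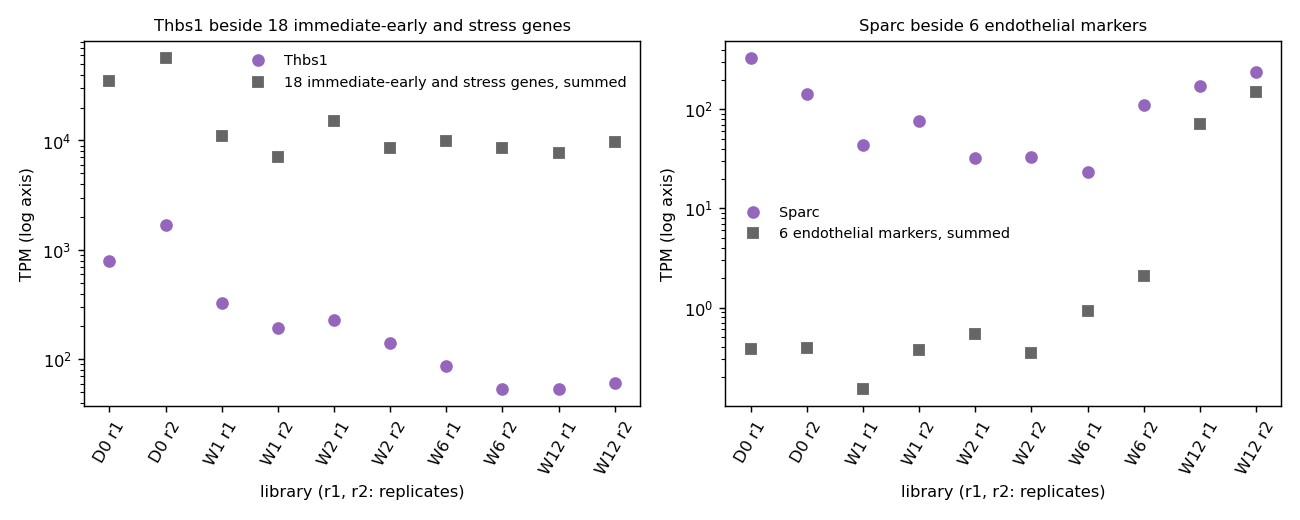
TPM on a log axis in each library (r1 and r2 are the replicates) of Thbs1 beside the sum of 18 immediate-early and stress genes, and of Sparc beside the sum of 6 endothelial markers. The stress sum and Thbs1 were both highest at D0, and the endothelial sum stayed at or below 2.08 TPM until it reached 70.7 and 151 TPM at W12, where Sparc stood at 171 and 240 TPM.

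Sparc encodes osteonectin, a collagen-binding protein that also counters cell spreading, made in stroma and endothelium among other tissues. It lies on chromosome 11 (55394500 to 55423183, minus strand). Its D0 libraries held 330 and 142 TPM, followed by 43.4 and 76.2 at W1, 32.1 and 33.0 at W2, 23.6 and 111 at W6, and 171 and 240 at W12. Thus Sparc was low in all libraries of W1 and W2, split at W6, and at W12 was back within the range of D0. The W12 difference was −0.10 against D0 (standard error 0.65), 0.51 without D0 replicate 1, −0.70 without D0 replicate 2 and 1.80 against W1, so that its sign depended on the baseline. Against W6 it was 1.96, but 3.05 without W6 replicate 2 and 0.86 without W6 replicate 1.

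Markers of other cell types were also measured beside Sparc. At W12, replicate 2 had more Sparc and more endothelial markers than replicate 1, among them Pecam1 at 59.8 against 26.1 TPM and Emcn at 45.5 against 22.9 TPM, although the sort removed CD31-positive cells and Pecam1 encodes CD31. Cdh5, which defines endothelial junctions, was listed at 3.64 and 1.61 TPM there and at 0 in all 6 libraries up to W2. At W6 the fibroblast list summed to 52.6 TPM in replicate 2 and 1.80 TPM in replicate 1, nearly all of it the single gene Dcn (51.2 TPM), while Col1a1 was at 0.143 TPM and Col3a1 at 0.106 TPM. The leukocyte sum at W6, 5.76 and 4.62 TPM, was the lowest of all timepoints. At D0 the endothelial sum was 0.384 and 0.387 TPM. Over the libraries Sparc had r = −0.78 with the sum of 7 mural and muscle markers, 0.66 with the epidermal basal sum, and 0.51 with each of the endothelial, fibroblast and leukocyte sums. The replicate with the higher sum had more Sparc at 3 of 5 timepoints for the endothelial and the epidermal basal sums. It did at 2 of 5 for the fibroblast and leukocyte sums and at 0 of 5 for the mural and muscle sum. The part of these markers in the Sparc levels was not tested.

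Spp1 encodes osteopontin, a phosphoprotein that binds CD44 and αv integrins and attracts macrophages. It lies on chromosome 5 (104435118 to 104441050, plus strand) and overlaps Gm42793 on the same strand, so reads of the shared part are uncertain. Spp1 was listed at 0 in replicate 1 of D0 and of W1, at no more than 0.0672 TPM in the other 4 libraries up to W2, at 0.257 and 1.83 TPM at W6, and at 4.47 and 5.39 TPM at W12. W12 lay above W6 and W6 above all earlier libraries, and the 2 W6 libraries were the most unequal pair. No ratio to D0 is given because of the listed 0, and the depth behind it is unknown. On the log2(TPM + 1) scale the differences from D0 were 0.87 at W6 and 2.52 at W12 (standard error 0.35), and 2.56 at W12 without D0 replicate 2. These sizes depend on the pseudocount, since with 0.1 TPM in place of 1 the differences were 2.68 at W6 and 5.28 at W12. At W6 the difference was 1.45 with replicate 2 alone and 0.28 with replicate 1 alone. The library with more Spp1 was also the one with the higher endothelial sum at 5 of 5 timepoints, although both were near 0 up to W2. Over the 10 libraries Spp1 had r = 0.96 with the endothelial sum, 0.84 with the fibroblast sum and 0.78 with the melanocyte sum. The fibroblast sum was 52.6 TPM in the W6 library with more Spp1. The higher replicate was the same at 4 of 5 timepoints for the fibroblast sum and at 3 of 5 for the melanocyte sum. The part of these lists in Spp1 was not tested.

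Postn and Tgfbi encode periostin and βig-h3, related proteins built of fasciclin domains that link collagen to integrins, and the second is named for its induction by TGF-β. Postn (chromosome 3, 54361109 to 54391037, plus strand) stood at 213 and 270 TPM in the D0 libraries, 333 and 274 at W1, 391 and 313 at W2, 261 and 528 at W6, and 440 and 275 at W12. All libraries after D0 except W6 replicate 1 lay above both D0 libraries, and W1, W2, W6 and W12 overlapped each other. The means went from 241 ± 40.2 TPM at D0 to 357 ± 117 TPM at W12 (SD, n = 2), and the fitted differences from D0 lay between 0.33 and 0.63, with a standard error of 0.34. Single libraries moved these values. At W1 the difference was 0.16 and 0.50 without D0 replicate 1 and 2, and 0.19 without W1 replicate 1. At W6 it was 1.14 and 0.12 without W6 replicate 1 and 2. At W12 it was 0.19 and 0.87 without W12 replicate 1 and 2, 0.70 without D0 replicate 2 and 0.20 against W1. The 10 fibroblast markers summed to 52.6 TPM in W6 replicate 2, the library with the most Postn, to 14.5 and 29.1 TPM at W12, and to 4.28 TPM or less in the other 7 libraries, with Col1a1 at or below 0.481 TPM throughout. The replicate with the higher fibroblast sum had more Postn at 4 of 5 timepoints (r = 0.55 over the 10 libraries), and that with the higher melanocyte sum at 5 of 5 (r = 0.64). The part of these markers in Postn was not tested.

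Tgfbi (chromosome 13, 56609523 to 56639562, plus strand) took another course. Its D0 libraries held 468 and 687 TPM, followed by 463 and 392 at W1, 460 and 450 at W2, 195 and 149 at W6, and 288 and 312 at W12. All 6 libraries up to W2 lay above all 4 later ones, and W12 lay above W6 in both libraries. The difference from D0 was −1.73 at W6 and −0.92 at W12 (standard error 0.21), −1.45 and −0.64 without D0 replicate 2, and −1.32 and −0.50 against W1. The W12 to W6 difference, which does not involve D0, was 0.81.

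Pthlh (chromosome 6, 147252101 to 147264183, minus strand) was already well above D0 at W1. From 3.47 and 5.30 TPM before DOX it went to 14.3 and 17.9 at W1, 20.6 and 25.3 at W2, 26.8 and 16.6 at W6, and 38.6 and 42.6 at W12. Every library on DOX lay above both D0 libraries and the W12 pair above all others, while W1 and W6 overlapped, as did W6 and W2. The W12 mean of 40.6 ± 2.78 TPM was 9.25 times the D0 mean of 4.39 ± 1.29 TPM (SD, n = 2), with log2 differences from D0 of 1.68 at W1, 2.17 at W2, 2.06 at W6 and finally 2.97 at W12 (standard error 0.26). Without D0 replicate 2 the W12 difference was 3.22, and against W1 it was 1.29. The receptor gene Pth1r was below a mean of 1 TPM over the libraries and was not tested.

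**Figure D3:**
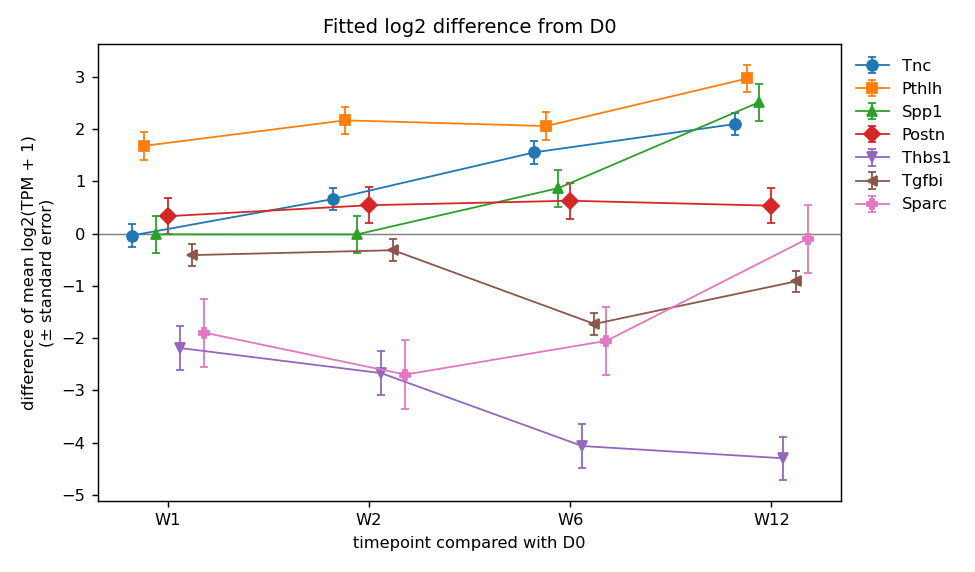
Fitted difference of mean log2(TPM + 1) from D0 at W1, W2, W6 and W12 for each of the 7 genes, with standard errors as error bars. At W12 the values run from −4.30 for Thbs1 to 2.97 for Pthlh, with Sparc at −0.10, and Tnc went from −0.04 at W1 to 2.10.

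The replicates of W12 differed unequally over the 7 genes. Replicate 2 was higher than replicate 1 for Tnc by 0.51 on the log2(TPM + 1) scale, for Sparc by 0.49, for Spp1 by 0.23, for Thbs1 by 0.18, for Pthlh by 0.14 and for Tgfbi by 0.11, and the difference was −0.68 for Postn. The median size of the difference over all genes tested was 0.182, and 94.2% of genes differed by less than Postn, 88.9% by less than Tnc and 87.7% by less than Sparc. So 6 of the 7 genes were higher in replicate 2, as were 62.9% of all genes tested, and Postn went the other way. For Postn, replicate 2 was also lower at W1 and W2 but higher at D0 and W6.

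The other timepoints set a scale for these differences. At W6 the size was 2.19 for Sparc, 1.17 for Spp1 and 1.01 for Postn, against a median of 0.318 over all genes, and 99.0% of genes differed by less than Sparc. At D0 it was 1.21 for Sparc and 1.09 for Thbs1 against a median of 0.307. The W12 difference was thus not the largest for any of the 7 genes except Tnc, whose replicates differed by 0.24 or less elsewhere. With W12 replicate 2 alone Tnc was 0.80 above W6, and with replicate 1 alone 0.29.

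**Figure D4:**
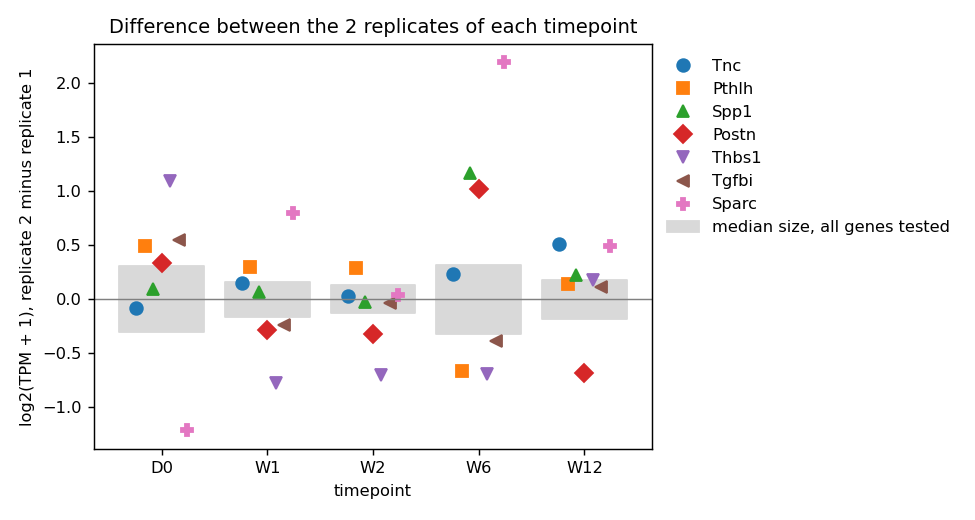
Replicate 2 minus replicate 1 in log2(TPM + 1) for each gene at each timepoint, with the grey band marking plus and minus the median size over all genes tested. At W12 Postn lies at −0.68 and Tnc at 0.51, outside a band of 0.182, and at W6 Sparc lies at 2.19.

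Over the 10 libraries, the log2(TPM + 1) values of Tnc and Spp1 had the highest correlation among the 7 genes (r = 0.88), followed by Thbs1 with Tgfbi (r = 0.82), whereas Thbs1 ran opposite to Pthlh (r = −0.87) and to Tnc (r = −0.85). Sparc had no r beyond 0.51 in size with any other member. These values describe 5 timepoints of 2 libraries each, which share time on DOX, and carry no P value. The 3 genes most like each member over the 10 libraries were Tspan3 (r = 0.994), Samd15 (0.986) and Gsta4 (0.981) for Tnc, and Tspan12 (r = 0.996), Prkg2 (0.994) and Cd81 (0.993) for Spp1. For Thbs1 they were Gab1 (r = 0.981), Chst15 (0.981) and Ets2 (0.98), and for Pthlh they were Vhl (r = 0.975), Aqp3 (0.972), a water and glycerol channel of keratinocytes, and S100a1 (0.97). Tgfbi was most like Sqstm1 (r = 0.966), Cyp2s1 (0.961) and Cyth3 (0.96). Sparc was most like Tmem53 (r = 0.956), Ly6c1 (0.954) and BC031181 (0.953). The best matches of Postn had the lowest r (R74862 at 0.908, Cep128 at 0.906 and Fundc2 at 0.854).

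Tests were made on 5 lists of related genes that exclude the 7. They hold relatives of the same families, their receptors, the matrix they bind, and genes of TGF-β activation and signalling. The last holds proteases that cleave them, together with the urokinase receptor gene Plaur, which does not encode a protease. Of 85 listed genes 58 passed the mean of 1 TPM, and limma called a change at a Benjamini-Hochberg adjusted P below 0.05 over all 13110 genes. Of the 58, it called 16 at W1, 19 at W2, 33 at W6 and, against D0 as in the others, 37 at W12 (19 higher and 18 lower). Some of the 58, such as Mmp10, Mmp13, Fbln5 and Cd36, passed the filter only through their W12 libraries, in which they were high. Counts that involve W12 include them. The shares called over all genes were 9.89%, 15.7%, 32.4% and 43.0% in the same order. These shares rest on single libraries too. The calls over all genes went from 1296 to 609 and 377 at W1 without W1 replicate 1 and 2, and from 2058 to 782 and 652 at W2 without W2 replicate 1 and 2. At W6 they went from 4251 to 2356 without D0 replicate 2, and at W12 from 5642 to 3737 without D0 replicate 2 and to 3362 and 3668 without W12 replicate 1 and 2. The median log2 change of the 58 was −0.05 at W12 beside −0.08 over all genes, and −0.49 at W6 beside 0.08. Without D0 replicate 2 the W1 count was 10, without W1 replicate 1 it was 9 and without W1 replicate 2 it was 7, and the W2 count was 11 and 12 without W2 replicate 1 and 2. With W1 as the baseline the counts were 25 at W6 and 40 at W12.

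The largest changes among the 58 genes were in cleaving proteases. At W12, 6 of 11 genes of this list, which includes the receptor gene Plaur, were higher than D0 and 2 lower. The share called was 72.7%, beside 43.0% of all genes, and the list's median change was 2.98 on the log2 scale. Mmp10, Mmp13 and Plaur reached the mean of 1 TPM only through their W12 libraries. They were thus tested because they were high there, and the share and the median include them. Mmp13, a collagenase, rose from 0.154 and 0.0227 TPM at D0 to 74.3 and 109 TPM at W12 (log2 change 6.39, limma adjusted P = 1.75e-06), and stromelysin-2, from Mmp10, from 0.0438 and 0.0122 to 56.5 and 87.9 TPM (6.12, adjusted P = 2.21e-06). In the 6 libraries of W1 to W6 neither exceeded 0.0658 TPM. Mmp9, a gelatinase, had already risen at W6, by 1.83 (adjusted P = 0.00134), and by 5.35 at W12 (adjusted P = 4.09e-06). Mmp3 was at 8.59 and 7.63 TPM at D0, at 1.76 TPM or less from W1 to W6, and at 61.5 and 80.9 TPM at W12, so that it fell by 2.27 at W6 (adjusted P = 0.00173, but 0.83 against W1, adjusted P = 0.102) and was 5.24 higher at W12 than at W6 (adjusted P = 3.53e-05). Spp1 was the member that, like Mmp10 and Mmp13, was nearly absent up to W2 and highest at W12. The leukocyte and endothelial sums were also highest at W12, at 105 and 129 TPM and at 70.7 and 151 TPM. The leukocyte sum was mainly Cd74 (102 and 124 TPM), with Ptprc at or below 0.327 TPM, and the part of both in these rises was not tested.

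Relatives of the members moved both ways. At W12, 6 of 12 were higher and 5 lower than at D0 (91.7% called, beside 43.0% of all genes). Of the higher ones, Fbln5, Sparcl1 and Fstl1 reached the mean of 1 TPM only through their W12 libraries. They were thus tested because they were high there, and the share includes them. Ccn1 (CYR61), an integrin ligand, had the largest fall, from a mean of 3880 TPM at D0 to 157 and 252 TPM (log2 change −4.22, adjusted P = 0.000562), most of it present at W1 (−3.94, adjusted P = 0.00296). Against W1 its W12 change was −0.28 and was not called (adjusted P = 0.697). Its relative Ccn2 rose by 3.0 at W6 and 2.09 at W12 against D0 (adjusted P = 0.000498 and 0.00162) but against W1 was lower at both, by −1.57 and −2.49 (adjusted P = 0.013 and 0.000635). The elastic fibre protein Fbln5 rose by 4.04 at W12 (adjusted P = 7.80e-05), to 13.9 and 18.2 TPM, and Fstl1, a secreted relative of Sparc, by 3.17 (adjusted P = 0.00061), both in the libraries with the high endothelial sums, whose part was not tested. Fbln1 rose by 2.97 at W6 (adjusted P = 0.000787, and 0.0711 against W1) and by 1.48 at W12 (adjusted P = 0.0126), the second of which was not called without D0 replicate 2 (adjusted P = 0.0811) or without W12 replicate 2 (adjusted P = 0.0945), and was −0.44 against W1.

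Among the receptors, 6 of 15 were higher and 4 lower at W12 (66.7% called, beside 43.0% of all genes). Of the higher ones, Cd36 and Stab1 reached the mean of 1 TPM only through their W12 libraries. They were thus tested because they were high there, and the share includes them. Cd44, the osteopontin and hyaluronan receptor, was listed at 72.5 and 72.9 TPM at D0 and 126 and 126 TPM at W12, a rise of 0.79 (adjusted P = 0.00282) that was in place by W1 (0.73, adjusted P = 0.0138) and against W1 was 0.05 (adjusted P = 0.777). Cd36 rose by 4.20 (adjusted P = 7.09e-06), from under 0.1 TPM at D0 to 16.8 and 21.2 TPM, whereas Cd47, the other thrombospondin-1 receptor, was at 101 and 127 TPM at D0 and 103 and 109 at W12 (−0.09, adjusted P = 0.685). Stab1, a scavenger receptor for Sparc, rose by 3.30 (adjusted P = 0.000156). Endothelial cells also express Cd36 and Stab1, and both were highest in the W12 libraries, where the endothelial sum was highest too, whose part in them was not tested.

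The integrin subunits did not move as 1 group. Itgb1 rose by 0.78 at W12 (adjusted P = 0.0089, or 0.0653 without W12 replicate 2), and Itgb8 by 2.13 at W6 and 1.76 at W12 (adjusted P = 0.000377 and 0.000519) but was 0.28 and −0.09 against W1. Itgav fell by 0.75 at W12 (adjusted P = 0.0164), a call lost without D0 replicate 2 (adjusted P = 0.0952) or without either W12 library (0.0785 and 0.0679), and Itga3 fell by 2.14 (adjusted P = 0.000583). Itgb5 rose by 1.20 at W1 and 1.53 at W2 (adjusted P = 0.0191 and 0.00482), and at W12 was at −0.18 against D0 (adjusted P = 0.586) and at −1.38 against W1 (adjusted P = 0.0026). Itgb6 fell by 1.37 at W2 (adjusted P = 0.00522), and at W12 was at 0.38 against D0 (adjusted P = 0.203) and at 1.07 against W1 (adjusted P = 0.00567). Itgb3 and Itga9 were below the mean of 1 TPM. Itga2 fell by 1.67 at W6 (adjusted P = 0.0263, not called without D0 replicate 1 or 2, 0.0531 and 0.122).

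The matrix partners were mostly lower at W6, where 7 of 9 fell and none rose (77.8% called, beside 32.4% of all genes). Their median change on the log2 scale was −1.44. Epidermal basal markers moved the same way at W6, with 8 of 10 called lower and 1 higher. Col17a1 is in both lists, and whether their falls are linked was not tested. At W12, 3 of 9 were lower (33.3%, beside 43.0% of all genes called), all of the epidermal anchoring apparatus: Col17a1 by −1.77 (adjusted P = 0.000951), Lamb3 by −1.69 (adjusted P = 0.00114) and Col7a1 by −1.19 (adjusted P = 0.000332). The basement membrane collagens Col4a1 and Col4a2 fell at W6 by 2.39 and 2.26 (adjusted P = 0.0122 and 0.012), calls lost without D0 replicate 2 (adjusted P = 0.086 and 0.0739) or W6 replicate 1 (0.062 and 0.0602), and were at −0.13 and −0.30 at W12. Tgfbi, whose product binds collagens, was lowest at the same timepoint.

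In the TGF-β list 4 of 11 genes were lower and 1 higher at W12, 45.5% called and so close to the 43.0% of all genes. The latent TGF-β binding proteins Ltbp4 and Ltbp3 fell by 2.43 and 2.11 (adjusted P = 0.000679 and 0.000683), and the receptor Tgfbr2 by 1.46 (adjusted P = 0.00192), which against W1 was −0.49 (adjusted P = 0.13). Of the ligands, Tgfb3 was 1.20 above D0 at W6 (adjusted P = 0.0103, and 0.168 against W1) and Tgfb2 was 1.54 below (adjusted P = 0.00401). Tgfb3 was highest at W2 (1.82, adjusted P = 0.00292) and at W12 was at 0.19 (adjusted P = 0.599). Plat, which encodes tissue plasminogen activator and belongs to the proteases, fell by 1.35 at W6 (adjusted P = 0.012), a change of −0.45 against W1.

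**Figure D5:**
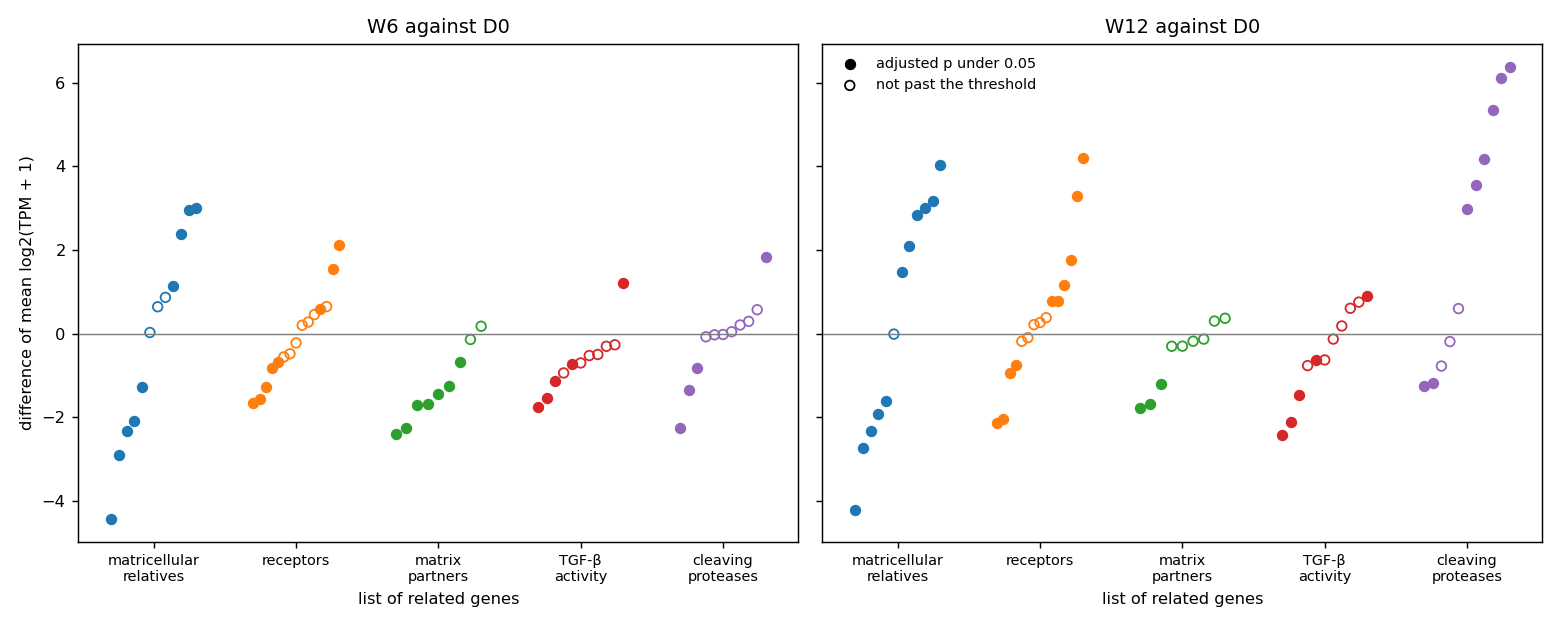
Fitted difference of mean log2(TPM + 1) from D0 at W6 and at W12 for the 58 related genes tested, each a point sorted by value within its list, with filled points for an adjusted P below 0.05 and open points for the rest. The proteases run up to 6.39 at W12, for Mmp13, and 7 of 9 matrix partners lie below 0 and are filled at W6.

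Between W6 and W12, which does not involve D0, limma called 28 of the 58 related genes, 22 higher and 6 lower, and 20.2% of all genes. With median-ratio scaling it called 23, 22 higher and 1 lower, and the share of all calls that were higher went from 33.0% to 55.7%. The count was 18 without W6 replicate 1 and 15 without either W12 library, and that over all genes went from 2642 to 1600 without W6 replicate 1, and to 761 and 1285 without W12 replicate 1 and 2. The members' own differences over this interval were 1.96 for Sparc, 1.65 for Spp1, 0.91 for Pthlh, 0.81 for Tgfbi, 0.54 for Tnc, −0.09 for Postn and −0.23 for Thbs1, beside a median of −0.16 over all genes. Without W6 replicate 1 and 2 they were 1.06 and 2.23 for Spp1, and 1.24 and 0.58 for Pthlh, and with a pseudocount of 0.1 Spp1 was at 2.59. For Thbs1 they were 0.11 and −0.58 without W6 replicate 1 and 2, and −0.14 without W12 replicate 1. Postn changed sign with the library left out, from −0.60 without W6 replicate 1 to 0.41 without W6 replicate 2. Between W1 and W2 limma called 0 of the 58 (11 at an unadjusted P below 0.05) and 15 of all genes, and the members differed by 0.70 for Tnc, 0.49 for Pthlh, −0.48 for Thbs1 and −0.80 for Sparc.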

How the data were processed

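RNA-seq of 10 libraries of FACS-purified EpdSCs was analysed. The authors trimmed reads with Skewer, quantified transcripts with Salmon 1.4.0 against GENCODE transcripts of GRCm38 extended by the transgene, summed them to genes with Tximport 1.12.3, and deposited TPM per gene. Whether strand was used in counting is not given in the sources used here. TPM are not counts, so the DESeq2 test of the study could not be run, and neither depth nor counting error is known. The deposited placode table, which holds the authors' own fold changes and p-values, was not used.

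Groups and replicate numbers came from the sample titles. The 13110 genes whose mean over the 10 libraries reached 1 TPM were fitted as log2(TPM + 1) in limma 3.58.1 (R 4.3.3), with the 5 timepoint means as the design, eBayes with a trend, and Benjamini-Hochberg adjustment over all genes tested. P-values measure the spread between these samples. The 7 genes and all lists were chosen with earlier results of these data known, and the 7 genes get no P value. Named among the related genes are, for each list, the called genes with the 3 largest changes at W12 and at W6 against D0, plus the receptors Cd44, Cd47, Cd36, Itgav, Itgb1, Itgb3, Itgb5, Itgb6, Itga9 and Pth1r. The most alike genes are the 3 with the highest Pearson r over the 10 libraries, without predicted genes and pseudogenes. Gene positions are from GENCODE M21 (GRCm38), and promoter windows from RefSeq (GRCm38.p6).

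Same-numbered libraries of different timepoints are different mice, and their deviations had correlations between −0.129 and 0.0934, so the main fit has no replicate block. Alternatives were the replicate block, each library left out, quantile normalization, median-ratio scaling, a fit of just the 4 libraries compared, eBayes with no trend, a pseudocount of 0.1, and a filter at 5 TPM or at any TPM above 0. W1 as the baseline and crossed replicate numbers were added after seeing the data. On simulated data of 13110 genes with 200 changed, the limma step for W12 against D0 recovered 81% of changes of 2 and 33% of changes of 1 (log2) and called 5 unchanged genes. For W6 against D0 it recovered 85% and 43%, and called 3.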

Additional observations from a re-analysis of the deposited data

How the results depend on the processing

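Of 301 recomputed log2 differences of the 7 genes, 238 moved by less than the replicate SD, 50 moved by more and 13 changed sign. With 1 library left out, the difference ranged from −0.1116 to 0.0373 for Tnc at W1, from −0.0614 to 0.0324 for Spp1 at W1 and from −0.0622 to 0.0317 at W2, and from −0.7026 to 0.5097 for Sparc at W12. For W12 against W6 it ranged from −0.6024 to 0.4125 for Postn and from −0.5786 to 0.1097 for Thbs1. With median-ratio scaling Postn was at 0.0612 in the same comparison, and with W1 as the baseline Tgfbi was at 0.0935 at W2 and Sparc at 1.80 at W12. With W1 as the baseline, Ccn2 was at −1.57 and −2.49 at W6 and W12, Cd44 at −0.15 and Mmp3 at 0.83 at W6, and Fbln1 at −0.44 and Itgb8 at −0.0899 at W12, each opposite in sign to its change against D0. Related genes called at W1 numbered 8 with all genes above 0 TPM and 7 with only the 4 libraries, and between 7 and 13 with 1 library left out. At W2 they numbered 0 against W1 and between 11 and 19 with 1 library left out, at W6 13 with only the 4 libraries and between 23 and 34 with 1 left out, at W12 between 30 and 37, and for W12 against W6 15 with only the 4 libraries and between 15 and 29. With W1 as the baseline they numbered 25 (W6) and 40 (W12). The calls among all genes at W1 went from 1296 to 606 with all genes above 0 TPM and 411 with only the 4 libraries, at W2 from 2058 to 1011, 1086 and, against W1, 15, at W6 from 4251 to 1094 with only the 4 libraries, and for W12 against W6 from 2642 to 887. With 1 library left out they ranged from 377 to 1773 at W1, 652 to 2568 at W2, 2356 to 5047 at W6, 3362 to 6168 at W12 and 761 to 2846 for W12 against W6. With a pseudocount of 0.1 Spp1 differed from D0 by 2.68 at W6 and 5.28 at W12, against 0.87 and 2.52. The higher share of calls at W1, W2 and W6 was 58.6%, 57.7% and 56.5%, and 44.8%, 45.6% and 45.2% with median-ratio scaling. The causes were not tested. Median-ratio scaling exchanged W6 and W12 in the order of Postn, and W1 and W2 in that of Spp1. With the replicate block 13, 18, 31, 37 and 24 related genes were called (W1, W2, W6 and W12 against D0, W12 against W6), within 1.5 times the counts without it. With crossed numbers, chosen after seeing the data, 13, 32 and 27 were called at W1, W6 and for W12 against W6. With 2 libraries per timepoint and no known depth, low values such as those of Spp1 before W6 cannot be given a counting error.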
